A study of Sus scrofa with 12 samples.

Results

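Lipid-associated macrophages of scarred tissue were followed through 10 marker genes: TREM2, TYROBP, GPNMB, CD68, CD9, APOE, FABP5, LPL, LGALS3 and CAPG. They were taken by name from a list of symbols, which was chosen with earlier results of these data known. All 10 were found among the 35682 genes of the count files and passed the filter on low counts that left 13844 genes. Hearts of 6 Yorkshire pigs (animals 1022, 1322, 1323, 1623, 1922 and 3622) gave 12 RNA sequencing libraries. Each animal gave 1 library of the border zone, the section next to the infarct, and 1 of the remote zone, from the posterior wall, both taken at mid-ventricular level. All 6 animals had a balloon occlusion of the left anterior descending artery for 60 min followed by reperfusion, and from day 9 all were immunosuppressed, with daily doses of 0.75 mg/kg for tacrolimus, 500 mg for mycophenolate mofetil and 20 mg for prednisolone. On day 14 the heart was covered either with organoids of human endothelial progenitor and smooth muscle cells in fibrin glue or with fibrin glue only, and tissue was taken 4 weeks later. Which animal received which treatment was not in the labels and was not used, so each zone pools both treatments and only the zones were compared. Ages of the animals were not used.

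Lipid-associated macrophages are macrophages that take up dead cells and lipoprotein debris in obese fat, fatty liver, atherosclerotic plaques and healing scars. TREM2 is a surface receptor that binds lipids and lipoproteins, and it signals through the adaptor DAP12, the product of TYROBP. Cells in this state are known for a shared set of transcripts for lipid transport, lysosomal glycoproteins and galectins. Gene positions were taken from RefSeq on Sscrofa11.1, and no exon of the 10 genes overlapped another RefSeq gene. Several of these genes are also used by other heart cells: cardiomyocytes and capillaries are rich in LPL and FABP5, and CD9 and GPNMB occur outside macrophages.

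Start regions of 4 of these genes are printed because they hold the motif matches that the receptor pair and the glycoproteins of the list show. They were read from the RefSeq annotation of the pig genome Sscrofa11.1, the build to which the reads were aligned, as 250 bases before and 50 bases from the start of each gene on, and are written 5′ to 3′ on the strand of the gene, with matches in capitals. TREM2 (chr7:36471460-36471759, minus strand) and TYROBP (chr6:45312513-45312812, minus strand) hold the ETS core GAGGAA, here always as its complement. GPNMB (chr9:92037178-92037477, plus strand) and CD68 (chr12:52874504-52874803, plus strand) hold the AP-1 motif TGANTCA.
TREM2: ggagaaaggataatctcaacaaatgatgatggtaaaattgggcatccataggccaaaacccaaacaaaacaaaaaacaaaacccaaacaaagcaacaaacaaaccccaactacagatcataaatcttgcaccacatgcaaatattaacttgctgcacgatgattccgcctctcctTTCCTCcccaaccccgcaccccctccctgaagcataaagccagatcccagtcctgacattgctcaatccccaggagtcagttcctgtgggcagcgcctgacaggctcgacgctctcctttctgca
TYROBP: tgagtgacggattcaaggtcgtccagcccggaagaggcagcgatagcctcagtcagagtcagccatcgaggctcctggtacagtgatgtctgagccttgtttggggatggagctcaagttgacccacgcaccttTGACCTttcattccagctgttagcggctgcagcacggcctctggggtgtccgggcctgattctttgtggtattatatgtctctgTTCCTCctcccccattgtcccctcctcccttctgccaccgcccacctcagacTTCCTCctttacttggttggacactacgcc
GPNMB: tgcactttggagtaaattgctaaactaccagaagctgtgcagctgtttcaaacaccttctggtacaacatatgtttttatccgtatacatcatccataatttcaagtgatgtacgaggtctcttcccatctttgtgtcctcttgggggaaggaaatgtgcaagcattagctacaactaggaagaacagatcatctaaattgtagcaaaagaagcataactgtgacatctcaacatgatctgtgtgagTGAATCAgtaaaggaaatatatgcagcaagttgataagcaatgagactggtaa
CD68: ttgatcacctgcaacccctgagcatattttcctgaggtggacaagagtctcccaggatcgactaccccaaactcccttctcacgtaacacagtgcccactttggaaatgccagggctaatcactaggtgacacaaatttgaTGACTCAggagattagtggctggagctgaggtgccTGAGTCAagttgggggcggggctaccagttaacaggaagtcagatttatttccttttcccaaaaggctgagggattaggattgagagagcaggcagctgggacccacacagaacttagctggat
With the first base of the gene as 1, the ETS core began at -75 in TREM2 and at -32 and 21 in TYROBP, which also held the nuclear receptor half-site AGGTCA at -116. The AP-1 motif began at -3 in GPNMB and at -109 and -74 in CD68. On both strands, the ETS core was in the windows of 4 of the 10 genes (TREM2, TYROBP, LGALS3 and LPL), against 25.9% of the windows of 19525 protein-coding genes. The AP-1 motif was in 2 of 10, against 6.06%, and AGGTCA in 1 of 10, against 14.1%. TATAAA was in 2 of 10 (FABP5, where matches on both strands overlap, and LPL), against 10.9%. Neither the M-box TCATGTG (2.36% of windows) nor the E-box CACGTG (7.93%) was in a window of the 10 genes. A match is a run of letters and not a measured binding site, and several of these genes have transcripts that start elsewhere.

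Between 15130210 and 31618680 reads were counted per library. Heart muscle genes were present in every library, with a summed level of 8 cardiomyocyte genes between 9453 and 66800 CPM, a count divided by the TMM-scaled library size. The border zone library of animal 1022 stood apart, with the 9453, while the other 5 border zone libraries had 32166 to 48226. Its 9 fibroblast and matrix genes summed to 59206 CPM, against 2877 to 11110 in the others of that zone. In animal 3622, 28024 genes were detected in the border zone, from the smallest total, against at most 20148 in any other library. The share of counts on mitochondrial protein genes was 5.69% to 17.3% in border zone libraries and 13.6% to 33.5% in those of the remote zone, where animals 3622 and 1322 had the most, 33.5% and 21.4%, and this share was lower at the border in every animal but 1922. The part of these shares in the results was not tested. Main results are also given with animals left out.

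The border zone held more RNA of 6 of the 10 genes. GPNMB, TREM2, CD9, APOE, LGALS3 and CAPG were higher than in the remote zone at an adjusted p under 0.05, and no gene of the list was lower, in the quasi-likelihood test of edgeR, with p adjusted by Benjamini-Hochberg over all 13844 genes. Over all genes, 2.06% passed as higher and 0.0144% as lower. TREM2 met the filter on low counts only through the border zone, where 6 libraries, against 1 of the remote zone, reached the 0.419 CPM it asks of 6 libraries, so its call is not independent of the filter. Of the other 9 genes, which reached it in all 12 libraries, 5 passed. The median log2 fold change of the 10 genes was 3.03, beside 0.04 over all genes tested. Because the list was chosen with earlier results of these data known, its distance from all genes is a description and not independent support. With the animal as a block, 0 of the 10 passed (0.289% of all genes passed as higher), and the median of the 10 was 1.85, with 7 at an unadjusted p under 0.05, as 29.4% of all genes were. The Wald test of DESeq2 called the same 6 genes and CD68 (7 of 10, against 8.48% of the genes with an adjusted p). Without animal 1022 the median was 1.45 and APOE alone passed (1.14% of all genes as higher). Without animal 1323, 1623, 1922 or 3622, in turn, 0 of the 10 passed by edgeR, with medians of 3.04 to 3.33 and 8 at an unadjusted p under 0.05 each time, as 19.9%, 19.4%, 22.2% and 17.7% of all genes were (0.0218%, 0%, 0.0999% and 0% passed as higher), while without 1322 the same 6 passed (3.64% of all genes passed as higher). With no filter on low counts 0 of the 10 passed (0.459% of all genes as higher), and 8 had an unadjusted p under 0.05, as did 25.8% of all genes. The test without a block treats both libraries of an animal as separate samples, and in whole tissue more cells of a type and more RNA per cell cannot be told apart.

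Within animals the direction was steadier than the size. Of the 9 genes other than TREM2, 5 were higher in the border zone of each of the 6 animals, as were 11.7% of all genes tested. TREM2 was higher in all 6 as well, which the filter comes close to fixing. For LGALS3, 1 of the 9 genes other than TREM2, the lowest border zone library lay above the highest remote zone library, as for 1.99% of all genes. The zones of TREM2 did not overlap either, and for the same reason this is given as a description only. Animal 1022 had the largest rise, with a median of 5.20 on the log2 scale over the 10 genes, followed by animal 1623 with 2.94, while the other 4 animals had 0.57 to 1.11. Across the 6 animals the median over all genes tested was between -0.04 and 0.14.

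**Figure D1:**
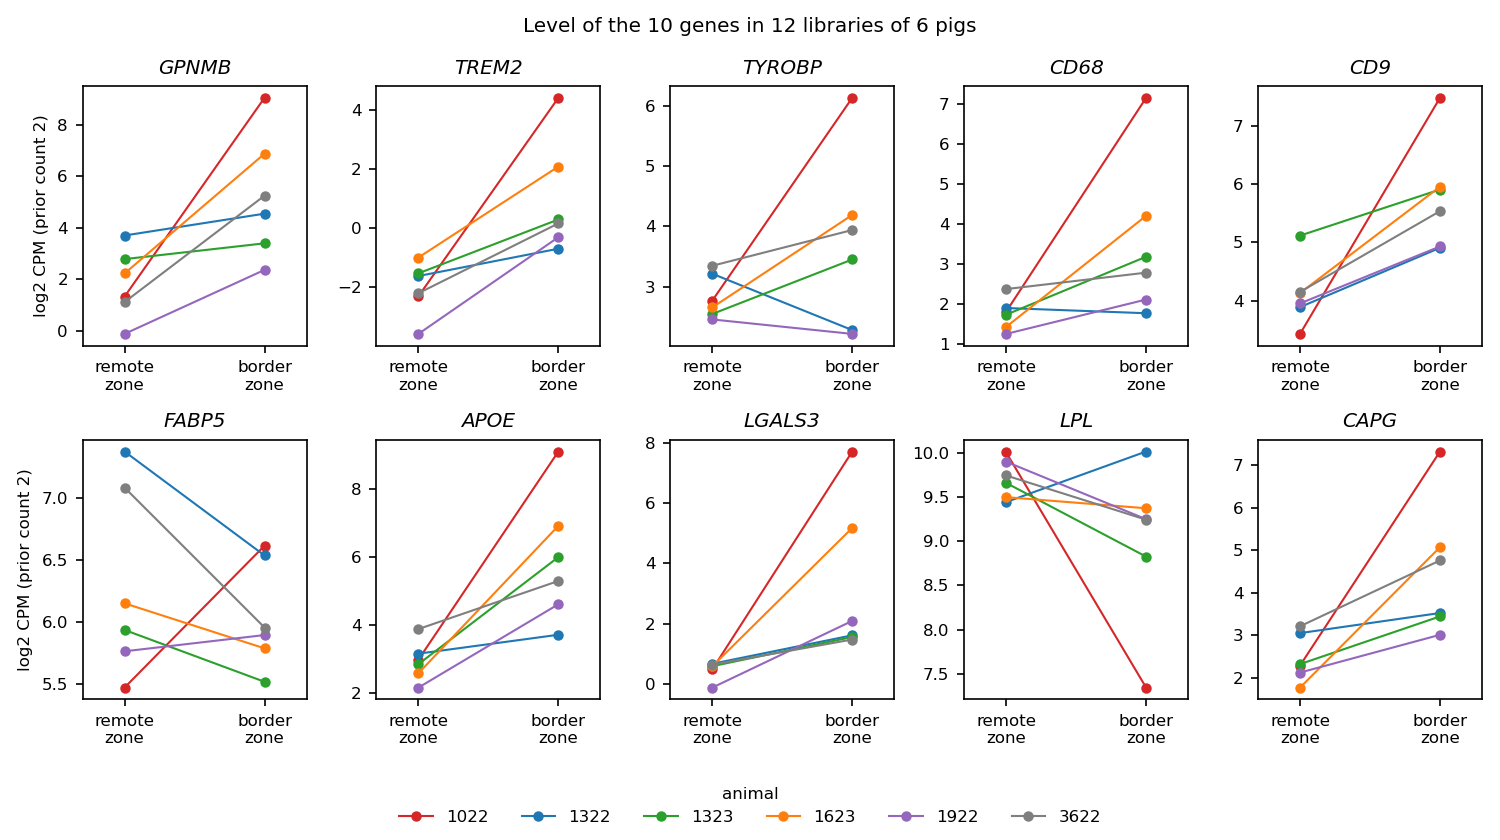
Level of each of the 10 genes as log2 CPM (prior count 2) in the remote zone and the border zone, with 1 point per library and a line joining the libraries of an animal. The vertical axes differ between panels. The border zone library of animal 1022 is the highest of its zone for 9 genes and the lowest for LPL.

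TREM2 (ENSSSCG00000039270, chr7:36465921-36471509), the lipid-sensing receptor, had the lowest median level of the list per length of transcript in both zones. Its CPM in the border zone was 21.4 in animal 1022, 4.19 in 1623, 1.15 in 1323, 1.04 in 3622, 0.728 in 1922 and 0.536 in 1322. In the remote zone it was 0.420 in 1623, 0.263 in 1323, 0.242 in 1322, 0.134 in 3622, 0.119 in 1022 and 0 in 1922, where 0 counts allow up to 0.156 CPM (3 counts, for counting error only). The zones did not overlap, although few counts lay behind these levels, 11 to 649 per border zone library and at most 11 per remote zone library. The log2 fold change was 4.55 ± 1.03 (SE; edgeR, adjusted p = 0.0395) for a gene that the filter kept through its border zone levels, and with no filter it was 4.47 (edgeR, adjusted p = 0.0866). With the block it was 3.54 ± 0.81 (edgeR, adjusted p = 0.0774), and without animal 1022 it was 2.76 ± 0.73 (edgeR, adjusted p = 0.102).

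TYROBP (ENSSSCG00000002919, chr6:45309199-45312562) encodes DAP12, which carries the signal of TREM2 and of many other myeloid and natural killer cell receptors. Its border zone CPM was 70.3 in animal 1022, 18.2 in 1623, 15.3 in 3622, 10.9 in 1323, 4.77 in 1322 and 4.56 in 1922. The remote zone libraries held between 5.41 and 10.1 CPM, with a median of 6.47. The zones overlapped, the border zone being higher in 4 of 6 animals and lower in 1322 and 1922. The log2 fold change of 1.52 ± 0.57 did not pass (edgeR, adjusted p = 0.134). It was 0.86 ± 0.51 with the block and 0.54 ± 0.38 without animal 1022 (edgeR, adjusted p = 0.282 and 0.510). So the receptor and its adaptor stood differently against the threshold, but the difference between their changes was not tested.

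Of 14 other genes of TREM2 and DAP12 signalling, 11 were tested. None passed as higher or lower at an adjusted p under 0.05 by edgeR with or without the block, while DESeq2 called 6 as higher. All 11 had a positive log2 fold change, with a median of 1.48 (0.88 without animal 1022). LAT2, an adaptor of immune receptors, had 2.59 ± 0.77 (edgeR, adjusted p = 0.0812). SYK, the kinase that binds phosphorylated DAP12, had 2.08 ± 0.74 (edgeR, adjusted p = 0.12). INPP5D and PLCG2, a phosphatase and a phospholipase of this pathway, had 1.72 ± 0.52 and 1.36 ± 0.43 (edgeR, adjusted p = 0.0853 and 0.0920), and VAV1, an exchange factor, had 1.95 ± 0.61 (edgeR, adjusted p = 0.0900). Without animal 1022 these 5 genes had 0.67 to 1.16.

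GPNMB (ENSSSCG00000032241, chr9:92037428-92071501) is a glycoprotein of lysosomes and the cell surface that rises in macrophages under lysosomal load. Its CPM in the border zone was 529.7 in animal 1022, 117 in 1623, 37.8 in 3622, 23.3 in 1322, 10.4 in 1323 and 5.05 in 1922. Remote zone values were 12.9 in 1322, 6.78 in 1323, 4.58 in 1623, 2.42 in 1022, 2.07 in 3622 and 0.832 in 1922. Both zones spread widely and overlapped, yet each animal was higher in its border zone, by 0.61 in 1323 to 7.73 in 1022 on the log2 scale. By the fit the log2 fold change was 4.61 ± 1.11 (edgeR, adjusted p = 0.0493). It was 3.32 ± 1.0 with the block and 2.81 ± 0.85 without animal 1022 (edgeR, adjusted p = 0.0928 and 0.138).

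CD68 (ENSSSCG00000017956, chr12:52874754-52877256), a lysosomal glycoprotein used as a macrophage stain, did not pass the test. Its CPM in the border zone was 143 in animal 1022, 18.4 in 1623, 8.98 in 1323, 6.78 in 3622, 4.22 in 1922 and 3.31 in 1322, and in the remote zone between 2.29 and 5.08. Animal 1022 held 77.4% of the CPM summed over the border zone, and its level was 7.79 times that of the next library. Its log2 fold change was 3.20 ± 0.87 (edgeR, adjusted p = 0.0637), 1.71 with the block and 1.31 without animal 1022. A second pig locus with the same product name, LOC100520753 on chromosome 8, matches 1033 of the 1226 exon bases of CD68 at 86.0% identity. How reads that fit several places were counted is not given in the sources used here, so the counts of CD68 are uncertain.

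CD9 (ENSSSCG00000022230, chr5:64420177-64459783), a tetraspanin of cell membranes that is not specific to macrophages, was moderately abundant in both zones. Its border zone CPM was 178 in animal 1022, 61.9 in 1623, 59.9 in 1323, 46.3 in 3622, 30.4 in 1922 and 30.0 in 1322, and its remote zone CPM was 10.7 to 34.6, with a median of 16.5. The zones overlapped, with 4 border zone libraries above the remote zone maximum. Apart from animal 1022, the rises were alike among animals, at 0.79 to 1.82 on the log2 scale. Its log2 fold change was 1.88 ± 0.43 (edgeR, adjusted p = 0.0426), 1.61 ± 0.41 with the block (edgeR, adjusted p = 0.0814) and 1.18 ± 0.28 without animal 1022 (edgeR, adjusted p = 0.0725).

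**Figure D2:**
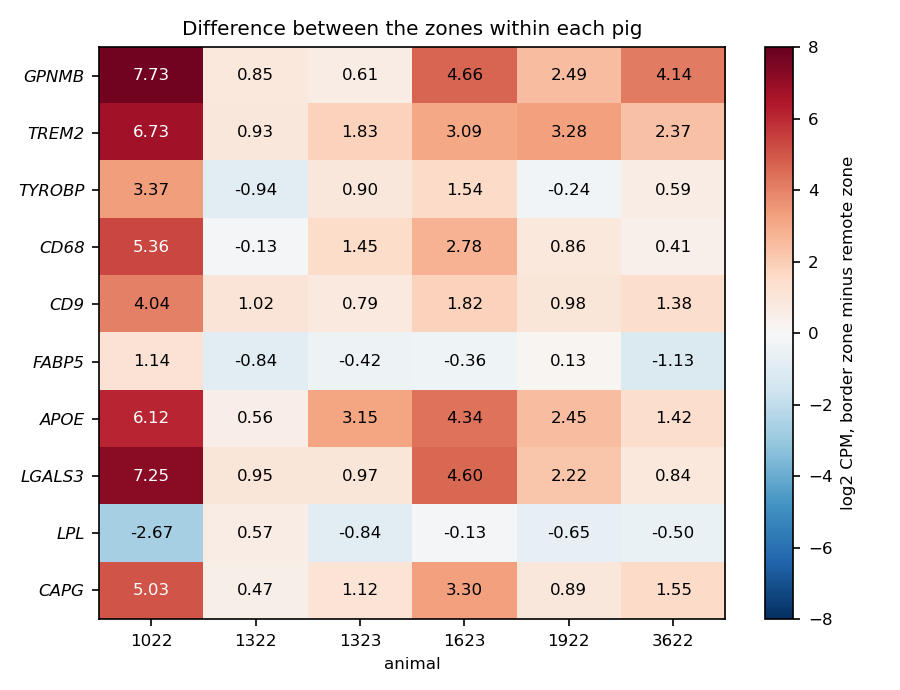
Border zone minus remote zone on the log2 CPM scale (prior count 2) for each gene (down) and animal (across), with red for higher and blue for lower in the border zone. GPNMB, TREM2, CD9, APOE, LGALS3 and CAPG are above 0 in all 6 animals, and FABP5 and LPL are mostly below 0.

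Of the genes of lipid handling in the list, 1 of 3 passed as higher, as did 2.06% of all genes, and 0 with the block, against 0.289%. APOE (ENSSSCG00000003088, chr6:51373113-51375333), which packs cholesterol that leaves macrophages into lipoproteins, had the lowest adjusted p of the list in the main edgeR fit. This did not hold in every fit, as TREM2 had a lower one with the block (edgeR, adjusted p = 0.0774). Its border zone CPM was 556 in animal 1022, 122 in 1623, 64.4 in 1323, 39.5 in 3622, 24.6 in 1922 and 13.1 in 1322. The remote zone libraries held 4.42 to 14.8 CPM, with a median of 7.53. Only the border zone library of animal 1322 lay within the remote zone range, and the rise within animals was 0.56 to 6.12 on the log2 scale. The log2 fold change was 4.06 ± 0.83 (edgeR, adjusted p = 0.0316) and 2.97 ± 0.73 with the block (edgeR, adjusted p = 0.0798). Without animal 1022 it was 2.67 ± 0.54 and passed (edgeR, adjusted p = 0.0345), as it did without 1322 (edgeR, adjusted p = 0.0324), but the call was lost without 1323, 1623, 1922 or 3622 (edgeR, adjusted p = 0.123, 0.117, 0.0743 and 0.0839).

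FABP5 (ENSSSCG00000006153, chr4:55277831-55282585), a carrier of fatty acids in the cytosol, showed no such rise. It had 97.9 CPM in the border zone of animal 1022 and 92.7 in 1322, and 45.8 to 62.0 in the others, while the remote zone ranged from 44.3 in animal 1022 to 166 in 1322. The border zone range lay within that of the remote zone, and 2 of 6 animals were higher in the border zone. Its log2 fold change was -0.36 ± 0.33 (edgeR, adjusted p = 0.514, and 0.558 with the block), and its sign changed with library totals in place of TMM, to 0.02.

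LPL (ENSSSCG00000040631, chr14:4104761-4134964), the lipase that frees fatty acids from circulating triglycerides, had the highest median level of the list per length of transcript in both zones, though not in every library. Its border zone CPM was 1038 in animal 1322, 664 in 1623, 609 in 1922, 607 in 3622, 454 in 1323 and 162 in 1022. In the remote zone it ranged from 698 to 1031, with a median of 835. The order was thus turned: 5 of 6 animals were lower in the border zone, and animal 1022, the highest for the other 9 genes, was the lowest. The log2 fold change was -0.52 ± 0.33 (edgeR, adjusted p = 0.333), and -0.67 with the block (edgeR, adjusted p = 0.270). Within animals LPL differed by -2.67 in 1022 and by -0.84 to 0.57 in the others, where the mean of the cardiomyocyte genes differed by -2.12 in 1022 and by -0.57 to 0.18 in the others. The part of muscle content in the level of LPL was not tested.

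Of 20 further genes of lipid handling in macrophages, 17 were tested, and none passed in either direction by edgeR, with or without the block, or by DESeq2. Of these, 11 had a positive log2 fold change, and the median was 0.43. NPC1 and NPC2, which export cholesterol from lysosomes, had 0.96 ± 0.34 and 1.05 ± 0.40 (edgeR, adjusted p = 0.12 and 0.134). LIPA, the lysosomal acid lipase, had 1.02 ± 0.37 and was higher in 6 of 6 animals (edgeR, adjusted p = 0.126). ABCG1, a cholesterol exporter, had 0.84 ± 0.31 (edgeR, adjusted p = 0.131). Without animal 1022, NPC1 had 0.75 and the other 3 had 0.36 to 0.40.

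LGALS3 (ENSSSCG00000005055, chr1:184478639-184496155) encodes galectin-3, a lectin that binds sugars of glycoproteins and is known from fibrosis. Its border zone CPM was 211 in animal 1022 and 36.2 in 1623, but 4.18 in 1922, 2.97 in 1322, 2.86 in 1323 and 2.69 in 3622. The remote zone libraries held 1.31 to 1.5 CPM, except that of animal 1922, which stood apart with 0.832. The zones did not overlap, and animal 1022 alone held 81.2% of the summed border zone CPM, the highest such share of the 10 genes. The fitted log2 fold change was 5.03 ± 1.16 (edgeR, adjusted p = 0.0427), the largest of the list in the fit without a block but not with it, where TREM2, GPNMB and APOE had more, whereas the median difference within animals was 1.59. It was 2.77 ± 0.94 with the block and 2.87 ± 0.76 without animal 1022 (edgeR, adjusted p = 0.110 and 0.102).

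CAPG (ENSSSCG00000008239, chr3:59335483-59366855), a protein that caps actin filaments in moving macrophages, was also highest at the border of animals 1022 and 1623. Its border zone CPM was 159.5 in animal 1022, 33.5 in 1623, 27.0 in 3622, 11.4 in 1322, 10.8 in 1323 and 7.96 in 1922, and in the remote zone it was 3.32 to 9.16, with a median of 4.85. Only the library of animal 1922 lay within the remote zone range. The fit gave a log2 fold change of 2.86 ± 0.69 (edgeR, adjusted p = 0.0499), just inside the threshold, 1.98 ± 0.60 with the block and 1.60 ± 0.42 without animal 1022 (edgeR, adjusted p = 0.0943 and 0.104).

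**Figure D3:**
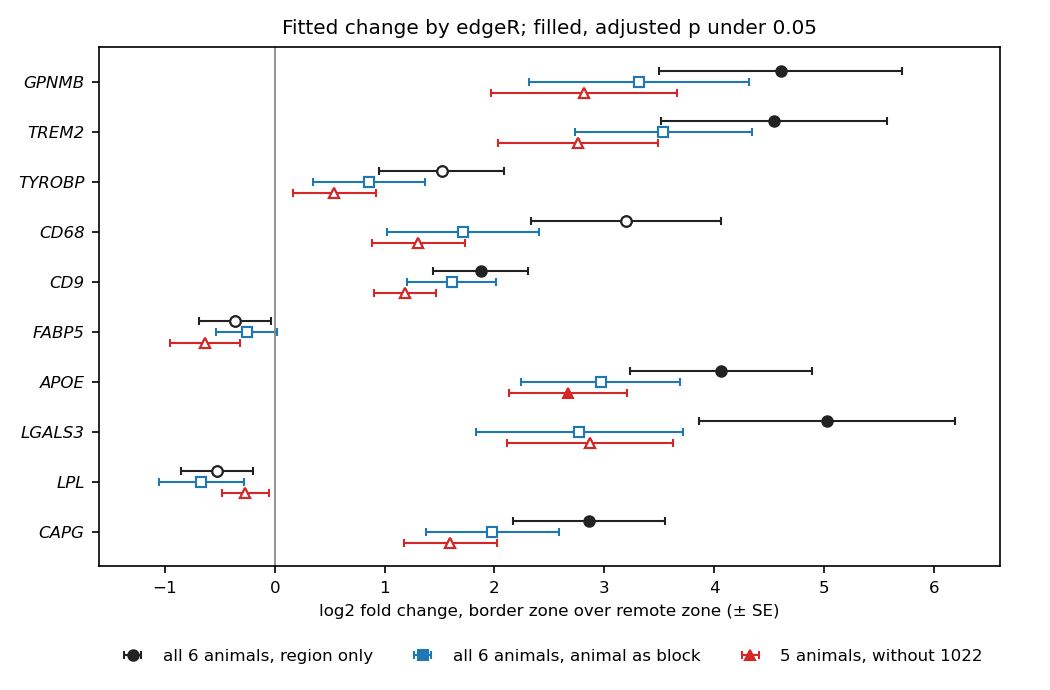
Fitted log2 fold change of border zone over remote zone for each gene, with bars of 1 SE, from edgeR with region as the only term (circles), with the animal as a block (squares) and without animal 1022 (triangles). Filled symbols have an adjusted p under 0.05: 6 circles, no square, and 1 triangle, that of APOE.

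Levels of different genes can be compared only per length. Per kilobase of RefSeq exon, the remote zone median was 278 CPM for LPL, 96.8 for FABP5, 13.6 for CD9, 11 for TYROBP, 6.85 for APOE, 2.7 for CD68, 1.94 for CAPG, 1.32 for LGALS3, 1.08 for GPNMB and 0.193 for TREM2. The ranges of neighbours in this order overlapped over the 6 libraries, except those of FABP5, at 65.0 to 243, and CD9, at 8.87 to 28.6. In the border zone APOE, with a median of 47.3 CPM per kilobase, stood above CD9 with 43.9 and TYROBP with 22.3, and GPNMB, with 9.45, above CD68, CAPG and LGALS3 with 6.43, 7.69 and 3.34, though each of these ranges overlapped. By median LPL and FABP5 led in both zones, at 203 and 89.0 in the border zone, but in the border zone of animal 1022 LPL, at 54.0 CPM per kilobase, lay below APOE, at 505, and in the remote zone of 1322 it lay below FABP5, at 233 against 243.

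Macrophage genes at large were compared as a yardstick. The 16 pan-macrophage genes all had a positive log2 fold change, with a median of 1.44 (0.94 with the block and 0.62 without animal 1022), but none passed as higher or lower by edgeR with or without the block (DESeq2 called 7 as higher). CSF1R, the receptor of the macrophage growth factor, had 1.63 ± 0.53 (edgeR, adjusted p = 0.0969), and CD163, a scavenger receptor for haemoglobin, had 1.73 ± 0.58 (edgeR, adjusted p = 0.108). Without animal 1022 they had 0.60 and 0.65 (edgeR, adjusted p = 0.191 and 0.334). LCP1, a leukocyte actin bundler, and LAPTM5, a lysosomal membrane protein of leukocytes, had 2.39 ± 0.71 and 1.95 ± 0.60 (edgeR, adjusted p = 0.0813 and 0.0866), and 1.09 and 0.82 without animal 1022. The summed CPM of the 16 was 2338 in the border zone of animal 1022, 227 to 594 in the others, and 202 to 380 in remote zone libraries. Averaged on the log2 scale, the 16 were higher at the border for 5 of 6 animals, and the difference had a median of 0.60 and a range of -0.23 to 2.91.

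Relative to that mean within each library, members of the list parted. GPNMB differed between the zones by a median within animals of 2.80 on the log2 scale, APOE by 2.26, TREM2 by 1.89 and LGALS3 by 1.54. CAPG, CD9 and CD68 differed by 0.90, 0.80 and 0.62, and TYROBP by 0.14. APOE, LGALS3, CAPG and CD9 were higher on this scale in 6 of 6 animals, as were 2.12% of all genes tested, GPNMB and CD68 in 5 and TYROBP in 4. For APOE the zones did not overlap on it, as for 0.708% of all genes. FABP5 was lower in 6 of 6 animals, as were 18.6% of all genes, with a median of -1.38, and LPL in 5 of 6, with -1.16. TREM2 was also higher in 6 of 6 animals without overlap, but it rests on few counts and was kept by the filter only through its border zone levels. These differences were described and not tested.

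**Figure D4:**
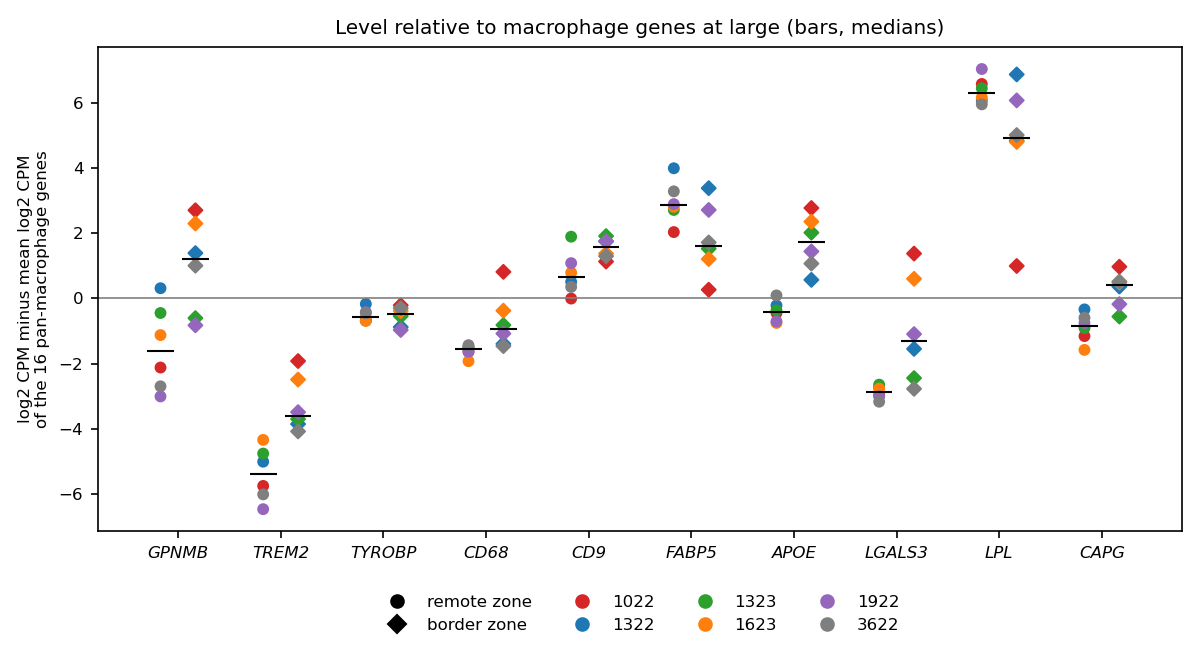
Log2 CPM of each gene minus the mean log2 CPM of the 16 pan-macrophage genes in the same library, for the remote zone (circles) and the border zone (diamonds), coloured by animal, with bars at the medians. APOE does not overlap between the zones (0.708% of all genes do not), nor does TREM2, which the filter kept only through its border zone levels, and the medians of FABP5 and LPL lie lower in the border zone.

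Other genes known from lipid-associated macrophages were read from a list of 20, of which 17 were tested and 3 passed as higher (0 with the block, 5 by DESeq2, and 1 without animal 1022). SPP1, the matrix protein osteopontin, had a log2 fold change of 8.48 ± 1.69 (edgeR, adjusted p = 0.0293), but 5.10 with the block and 5.98 without animal 1022 (edgeR, adjusted p = 0.0830 and 0.0581). In the border zone SPP1 had a median of 20.6 CPM and a maximum of 2106, in animal 1022. The study names SPP1 among genes it drew from these libraries in another comparison, so SPP1 was not chosen independently of them. ANXA2, a membrane protein of many cells, had 1.29 ± 0.28 (edgeR, adjusted p = 0.0338, and 0.0732 with the block). CTSL, a lysosomal protease, had 3.08 ± 0.68 (edgeR, adjusted p = 0.0350, and 0.0798 with the block), with border zone levels of 0.146 to 4.86 CPM. Its remote zone levels had a median of 0.196 and a maximum of 0.420 CPM, beside the 0.419 CPM that the filter asks of 6 libraries. The filter thus kept CTSL mainly through the border zone, and as for TREM2 its call is not independent of the filter. Without animal 1022 ANXA2 kept the call with 0.96 and CTSL lost it with 2.53 (edgeR, adjusted p = 0.0460 and 0.111). VIM, which fibroblasts also express strongly, had 1.82 ± 0.50 (edgeR, adjusted p = 0.0646), and 0.91 without animal 1022. The median of the 17 was 0.92 (0.45 without animal 1022).

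A further list held 10 genes of the lysosome and its MiT/TFE transcription factors, which are known to drive GPNMB. None of 9 tested genes of this list passed as higher or lower by edgeR, and their median was 0.08 (-0.06 without animal 1022), with 1 called by DESeq2. The activity of these factors was not tested. MITF had -0.20 ± 0.19 and TFEB -0.23 ± 0.13 (edgeR, adjusted p = 0.532 and 0.280), both of which turned slightly positive with library totals, to 0.05 and 0.04. TFEC, the member of this family found mainly in myeloid cells, had 1.62 ± 0.52 (edgeR, adjusted p = 0.0920), and 0.86 without animal 1022.

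Markers of other cells were read for the same libraries. Of 9 tested fibroblast and matrix genes, 8 passed as higher (2 with the block and 7 without animal 1022), with a median of 2.98 (1.98 without animal 1022), and their summed CPM was 2877 to 59206 in border zone and 993 to 2532 in remote zone libraries, without overlap. CTHRC1, a secreted protein of activated fibroblasts, had 5.07 ± 0.80 (edgeR, adjusted p = 0.0164, and 0.0410 with the block). COL1A1, a chain of collagen I, had 4.05 ± 0.81 (edgeR, adjusted p = 0.0295) and lost the call with the block (edgeR, adjusted p = 0.0821), but kept it without animal 1022, with 2.37 (edgeR, adjusted p = 0.0104). Of 4 tested monocyte and neutrophil genes, 2 passed as higher, VCAN and LYZ, with 3.0 ± 0.65 and 4.61 ± 1.05 (edgeR, adjusted p = 0.0341 and 0.0404), and 0 with the block. Without animal 1022 VCAN passed with 1.65 and LYZ, with 3.65, did not (edgeR, adjusted p = 0.0104 and 0.0725). VCAN is also a matrix protein of fibroblasts, and S100A8 and S100A12, also of this monocyte and neutrophil list, were under the filter. Resident cardiac macrophage genes had a median of 1.11 (0.48 without animal 1022), and 0 of 8 passed in either direction by edgeR (3 as higher by DESeq2). None of 8 cardiomyocyte genes passed by edgeR (1 lower by DESeq2), all 8 had a negative log2 fold change, and the median was -0.46 (-0.26 without animal 1022). Of 7 Schwann cell genes, which matter because glia can use APOE and GPNMB, 1 passed as higher, NGFR, with 2.52 ± 0.52 (edgeR, adjusted p = 0.0320, and 0.0476 with the block), and it lost the call without animal 1022, with 1.97 (edgeR, adjusted p = 0.0646). The calls of CTHRC1, COL1A1, VCAN, LYZ, NGFR, SPP1 and ANXA2 were each lost without 1323, 1623, 1922 or 3622, in turn, as was that of CTSL, which was under the filter without 1623. Of 7 adipocyte genes, which matter for LPL, CD9 and APOE, none passed by edgeR without the block (2 as higher by DESeq2), their median was -0.07, and ADIPOQ passed with the block (5.72, edgeR, adjusted p = 0.0476), with 0 to 26.8 CPM in border zone libraries and at most 0.955 CPM in those of the remote zone. The part of any of these cells in the level of the 10 genes was not tested.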

How the data were processed

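The authors sequenced poly(A)-enriched, nondirectional libraries as paired ends of 150 bp, checked reads with FastQC 0.12.1 and MultiQC 1.17, aligned them to Sscrofa11.1 (Ensembl 113) with STAR 2.7.10a and counted them on genes with featureCounts 2.16.1. The deposited values are raw counts per gene. Human cells lay on some hearts, and reads were aligned to the pig genome only. Symbols matched 15623 of 35682 identifiers. Counts kept by filterByExpr were scaled by TMM and tested in R 4.3.3 with edgeR 4.0.16 (robust quasi-likelihood, region only), and with DESeq2 1.42.0 as an alternative. An SE is the log2 fold change over the square root of F. Log2 CPM used a prior count of 2. The members and all gene lists were chosen with earlier results of these data known. Changes of single genes from each other list are given for some or all of the 4 with the lowest adjusted p, and for SPP1, CSF1R, CD163, SYK and MITF in any case.

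Border and remote libraries with 1 number are from the same pig and are thus paired: deviations from the zone means correlated at -0.03 to 0.57 within animals (mean 0.35, across genes). No pair of libraries was alike within sampling noise. On simulated data of the zones, 13844 genes, edgeR recovered 87.0% of the 4-fold and 97.0% of the 8-fold changes, with 9 unchanged genes called. With the block it recovered 84.0% and 94.0%, with 6 unchanged genes called. DESeq2 recovered 96% and 99%, but called 43 unchanged genes. The simulated counts were drawn independently for each library, with no effect of the animal and no library that stood apart. Their setting thus differs from the data, and these shares do not give the power of the fits above. Alternatives were the block, DESeq2, its size factors, library totals, other filters and prior counts, no mitochondrial genes and each animal left out. Treatment groups were not analysed here. Counts and intervals cover these libraries only, and PCR copies were not told apart from molecules.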

Additional observations from a re-analysis of the deposited data

Results flagged for a closer look

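For each of the 10 genes and each zone, the distance from the most extreme library to the one next to it was divided by the range of that zone, 20 groups of 6 libraries in all, of which chance sets apart about 1 in 20. In 1 of the 20 a library stood apart: the remote zone library of animal 1922, with a log2 CPM of -0.13 for LGALS3 against 0.48 in the next, that of animal 1022. The distance was 0.761 of the range, over Dixon's critical value. This library held 16 counts of LGALS3, and no cause was tested.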

How the results depend on the processing

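Of the 10 genes, 6 passed, and of all genes 287 (285 higher, 2 lower). As a replicate block, the animal left 0 and 41. At an unadjusted p under 0.05 the block left 7 of the 10 and 4069 of 13844 genes. DESeq2 size factors in edgeR gave 2 of the 10 (TREM2 and APOE) and 211 genes. With no filter 0 of the 10 and 139 of 30085 genes passed (8 and 7776 unadjusted), and with at least 10 counts in every library, where TREM2 was not tested, 1 (APOE) and 149 of 12123. Library totals gave 1551 genes (1545 higher, 6 lower) and 7 of the 10, and moved the median of all genes from 0.04 to 0.32. The DESeq2 Wald test gave 1724 (1415 higher, 309 lower). Without mitochondrial genes 4 of the 10 and 254 of 13834 genes passed. Each animal left out gave 0 to 6 of the 10 and 0 to 519 genes: 1 and 163 without 1022, 6 and 519 without 1322, 0 and 3 without 1323, 0 and 15 without 1922, and 0 and 0 without 1623 or 3622, where 8 of the 10 and 2662 and 2448 genes had an unadjusted p under 0.05. Fewer genes or samples were tested in the filtered and left-out fits; the cause was otherwise not tested. With library totals the sign changed for FABP5 (0.0184), MITF (0.0467) and TFEB (0.0399), none of which passed. The median over the 10 genes was 1.45 to 3.33 with each animal left out, 1.85 with the block and 3.53 with library totals. Over the alternatives the adjusted p of APOE was 6.25e-05 to 0.123, of GPNMB 0.000552 to 0.145 and of CAPG 0.000541 to 0.145. Of 77 values of the 6 genes that passed, 26 kept the call and 51 lost it, and of 52 values of the other 4, 49 stayed without a call, 2 gained one and 1 changed sign. The differences within animals, and those relative to pan-macrophage genes, moved by less than the spread between animals in all 170 values. For most of the 10 genes animal 1022 widens that spread, so few moves could exceed it and this count says little. TREM2 is limited by depth, with at most 11 counts in the remote zone.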

Other observations

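Genes of cell division, of which 5 of 8 were tested, had a median log2 fold change of 2.05 (1.21 without animal 1022). Their mean log2 CPM was above that of the remote zone in 6 of 6 animals, and their summed CPM in 4 of 6. None passed as higher or lower by edgeR, with or without the block (3 as higher by DESeq2). CENPF had 2.77 ± 0.77 (edgeR, adjusted p = 0.0680) at 0.243 to 6.81 CPM in the border zone, and 1.75 without animal 1022. TOP2A, which untangles DNA, had 2.05 ± 0.59, and CCNB1, the mitotic cyclin, 2.19 ± 0.65 (edgeR, adjusted p = 0.0778 and 0.0813), and 1.21 and 1.55 without animal 1022. AURKB, a mitotic kinase, had -0.56 ± 0.24 and was lower in 6 of 6 animals (edgeR, adjusted p = 0.174).

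Lymphocyte genes, 7 tested, had a median of 0.59 (0.38 without animal 1022), endothelial genes, 10 tested, a median of -0.09 (-0.17), and smooth muscle and pericyte genes, 10 tested, a median of 1.10 (0.52). None of these passed by edgeR with or without the block, and DESeq2 called 4 smooth muscle and pericyte genes as higher. NKG7, a gene of cytotoxic lymphocytes that also use DAP12, had 1.63 ± 0.66 (edgeR, adjusted p = 0.158) and 1.46 to 40.0 CPM in the border zone, and its log2 fold change was 0.55 without animal 1022. GPIHBP1, the capillary anchor of LPL, had -0.65 ± 0.42 (edgeR, adjusted p = 0.349). CSPG4, a pericyte proteoglycan, had 1.88 ± 0.48 (edgeR, adjusted p = 0.0526), and 1.06 without animal 1022.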
